A study of Mus musculus with 32 samples.

Results

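The oligodendrocyte lineage was followed by 9 marker genes, chosen by name, through 16 RNA-seq libraries of cultured mouse hippocampal neurons. The members are Pdgfra, Olig1, Olig2, Sox10, Cnp, Mbp, Mobp, Mag and Mog, and all 9 were found among the 55573 genes of the count table. Neurons had been plated on porous membrane inserts, so that cell bodies stayed on top (soma, with any neurites that did not cross) and neurites grew through to the underside. The libraries form 8 groups of 2 inserts, and DART-seq, a map of m6A, was made from 16 further libraries. Soma and neurites were taken from C57BL/6 (WT) and Mettl3 flox/flox (labelled Mettl3 KO) cultures, each untreated (Ctrl) or treated for 2 h with 55 mM KCl at DIV 15 (days in vitro).

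All cultures came from pooled newborn pups of single litters, with a different litter for each replicate and the same litter for Ctrl and KCl. WT and Mettl3 flox/flox cultures alike had received an AAV that expresses Cre from the hSyn promoter at DIV 7, and from DIV 14 they were silenced with TTX (1 µM) and D-AP5 (50 µM), applied over 16 h. The hSyn promoter is active in neurons, so glial cells of the Mettl3 KO cultures need not have lost Mettl3, and Ara-C, which kills dividing cells, had been added to hold back glia. By the labels the 2 genotypes also differ in strain, and their litters differ, so that strain, litter and genotype cannot be told apart.

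In GRCm38 the progenitor receptor Pdgfra lies on the plus strand at chr5:75152292-75198215. Olig2 (chr16:91225457-91228677) and Olig1 (chr16:91269772-91271933) are neighbours on the plus strand, and Sox10 is on the minus strand at chr15:79154908-79165240. Of the myelin genes, Cnp (chr11:100574904-100591729), Mbp (chr18:82475146-82585637) and Mobp (chr9:120149707-120181484) are on the plus strand, and Mag (chr7:30899176-30914873) and Mog (chr17:37010743-37023398) on the minus strand. Exons of other annotated genes overlap 652 exon bases of Pdgfra, 157 of Olig1, 154 of Cnp and 79 of Mobp, and reads there cannot be told apart.

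Oligodendrocytes are the cells that wrap axons of the central nervous system in myelin. They arise from oligodendrocyte progenitor cells (OPCs), which divide and carry the PDGF receptor Pdgfra, and pass through a short-lived differentiating stage before they make myelin. The transcription factors Olig1, Olig2 and Sox10 act throughout the lineage. Cnp, Mbp, Mobp, Mag and Mog encode proteins of myelin, and Mbp mRNA is a well-known example of an mRNA that oligodendrocytes carry out into their processes. Mbp also has golli transcripts, which neurons can make, and counts per gene do not separate these from the myelin transcripts. In such bulk samples fewer cells of a type and less RNA per cell cannot be told apart.

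Of the members, 2 carried an m6A site in DART-seq, which marks methylated adenosines by a C-to-U change of the cytidine that follows. The sites are given with 29 bases of the plus strand of GRCm38 (the strand of both genes), because they are the only listed sites of the members. Capitals mark the edited C, the methylated A before it and the A before that.
Cnp site: agatgcatccaagAACttgttaaccctcc
Olig1 site: ggccaccggtacaAACatcaagggtgtta

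The Cnp site is the cytidine at chr11:100581096-100581096, in the 3′UTR within exon 4 of Cnp-201, 303 bases past the coding sequence. The Olig1 site is at chr16:91271238-91271238, in the 3′UTR of its single exon, 582 bases past the coding sequence. In the deposited site list the edited fraction was 0.0728 at the Cnp site and 0.0271 at the Olig1 site, each as the authors' average over WT libraries with no error and no depth given. The median over all 18231 listed sites was 0.0354, so that Cnp lay above it and Olig1 below it. For Cnp, the authors' editing score per RNA was 0.0728 in WT and 0.00641 in Mettl3 KO, with 0.0787 in soma and 0.0679 in neurites. For Olig1 the score was 0.0276 in WT and 0.0100 in Mettl3 KO, with 0.00457 in soma and 0.0404 in neurites. The authors kept only sites edited at least 1.5-fold more in WT than in Mettl3 KO on average, so a lower score in Mettl3 KO was fixed by that choice. Soma and neurites were ordered one way for Cnp and the other way for Olig1. These are single averages, so no difference between them was tested. No site was listed for the other 7 members, while 5643 RNAs in all had one. A site needed at least 50 reads at its position, and several of the 7 had few RNA-seq counts over the whole gene (Mag 14 to 37 and Sox10 3 to 15 outside KCl-treated Mettl3 KO insert 1), so a site in them may not have been detectable.

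RefSeq promoters (GRCm38.p6, 250 bases before to 50 after the start) were at hand for 6 of the 9 members, with 8 promoters in all. They were searched on both strands for ACAAAG and ACAATG, core motifs of the SOX family to which Sox10 belongs. A match was found in 5 of the 8 promoters and in 28.6% of all 32851 promoters of that length. The Mobp promoter held 6 matches and those of Cnp and Olig2 held 1 each, and 2 overlapping Mag promoters shared 1. No match lay in the windows of Pdgfra, Mog or the third Mag start. CTTTGT and CATTGT below are ACAAAG and ACAATG read on the other strand, and the Mobp window ends in a further match, left in lower case. One window per gene with a match follows (the promoter's coordinates in brackets), in the direction of transcription with 1 match in capitals, to show the matched letters.
Mobp (chr9:120149492-120149791): actctgtgtggcCTTTGTgcgggcctttgt
Mag (minus strand, chr7:30914814-30915113): tgacaagggcccCTTTGTgcccccctcccc
Cnp (chr11:100574689-100574988): aacttttaaggaACAAAGaggtggcgtggc
Olig2 (chr16:91225300-91225599): ccaggaaaagcaCATTGTtcccgccccccg

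The libraries held 33789183 to 71394235 counts. Mettl3, counted over the whole gene, was at 13.2 to 17.3 CPM (counts scaled to 1 library size by TMM) in WT soma and at 6.11 to 11.6 in Mettl3 KO soma, and at 8.90 to 12.5 in WT neurites and 3.88 to 7.90 in Mettl3 KO neurites, so that the genotypes did not overlap within a compartment. One insert stood apart from all others in the oligodendrocyte genes. It is the KCl-treated Mettl3 KO insert with the replicate number 1, called insert 1 below, and both its soma and its neurite library showed it. The 9 members summed to 3292 CPM in its soma library and to 6158 CPM in its neurite library, against 69.5 to 239 CPM (median 101) in the other 14 libraries. As a share of all counts this was 0.395% (95% Wilson interval 0.394 to 0.397%) and 0.655% (0.653 to 0.657%), where the intervals cover counting error only. Its differences from insert 2 correlated at 0.89 across genes between soma and neurites, so that both libraries departed together.

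**Figure D1:**
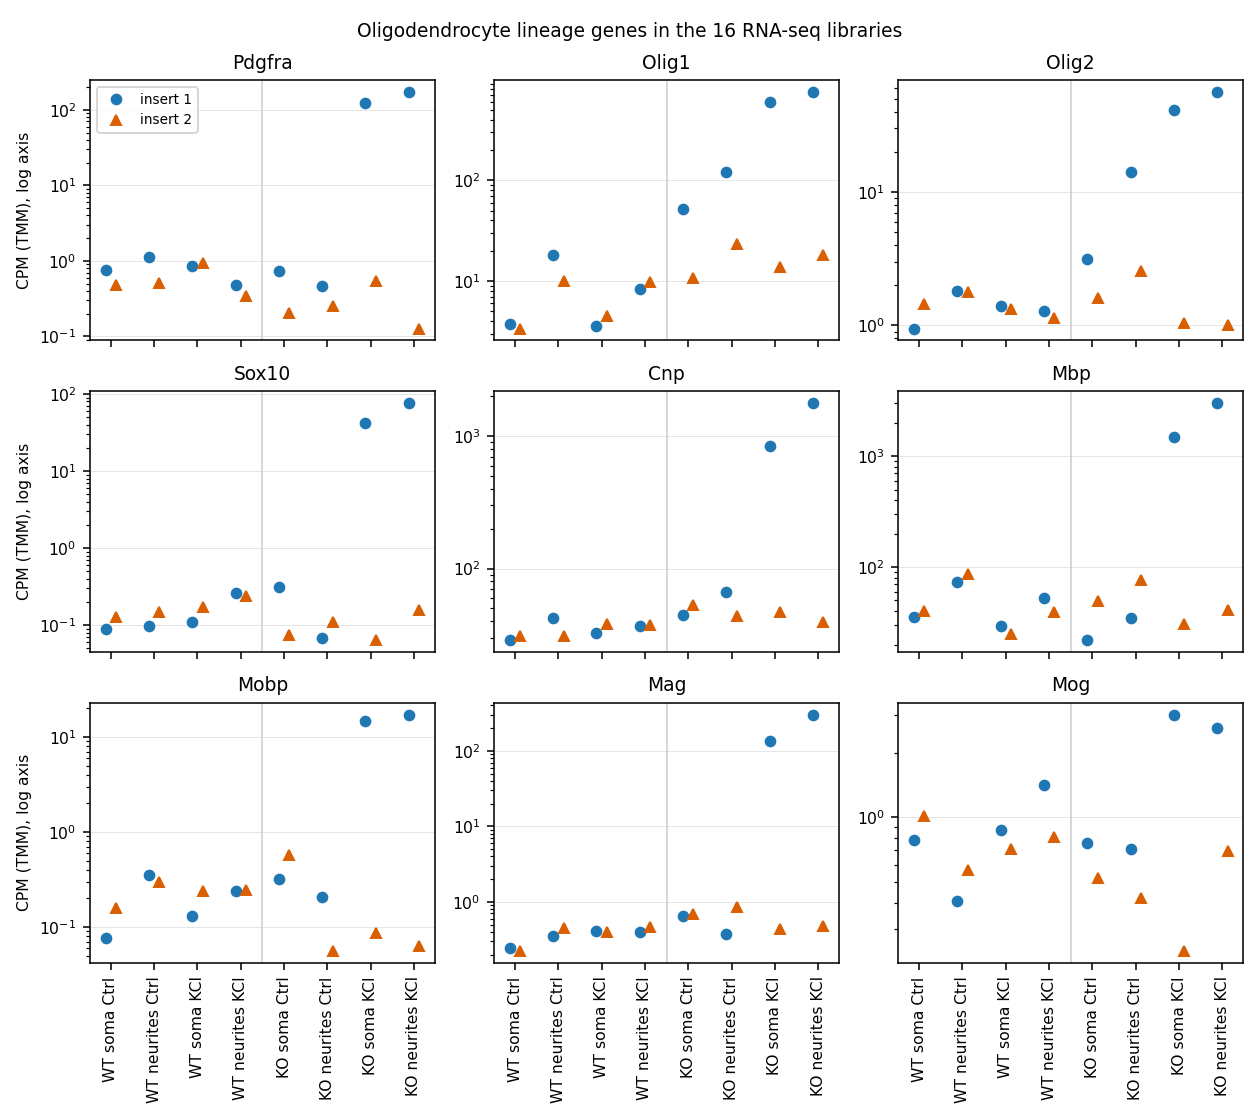
Level of each member in every RNA-seq library, as CPM on a log axis, by group (2 libraries each, circles for insert 1 and triangles for insert 2 of that group, and a grey line between WT and Mettl3 KO). For all 9 genes the 2 highest libraries are those of KCl-treated Mettl3 KO insert 1, and Olig1 and Olig2 are next highest in neurites of Ctrl Mettl3 KO insert 1.

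In the untreated WT soma the members were expressed at very different levels. Per kilobase of exon, Cnp, a phosphodiesterase of myelin membranes, was highest at 7.95 and 8.51 CPM per kb. Mbp, a main structural protein of compact myelin, followed at 4.19 and 4.77, and Olig1 at 1.75 and 1.56. Mog, a surface protein of late myelin, was at 0.458 and 0.597, and overlapped with Olig2 at 0.374 and 0.571. The remaining 4 were very low. Pdgfra was at 0.0766 and 0.0476 CPM per kb and overlapped with Mag, an adhesion protein of the innermost myelin layer, at 0.0597 and 0.0546. Sox10 was at 0.0294 and 0.0417, and Mobp, another protein of compact myelin, at 0.0112 and 0.0232. In raw counts, Sox10 had 3 to 15 and Mobp 2 to 31 over the 14 libraries other than insert 1, Mag 14 to 37, Pdgfra 4 to 66 and Mog 11 to 64, so that a difference of a few counts moved them widely. Cnp and Mbp, with 1039 to 2878 and 1042 to 3758 counts, were measured far more precisely. No member was at 0 in any WT group.

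The first comparison asked whether these RNAs lay in the neurite or the soma fraction of untreated WT inserts. Mbp and Olig1 rose in neurites. Mbp was at 35.5 and 40.4 CPM in soma and at 72.8 and 87.2 in neurites, with both neurite values above both soma values. Its log2 fold change was 1.01 ± 0.17 (SE), with an adjusted p of 0.00363 (edgeR quasi-likelihood test). Olig1, which is needed for progenitors to mature, was at 3.78 and 3.37 CPM in soma and at 18.0 and 10.1 in neurites. Its log2 fold change was 1.90 ± 0.25 (adjusted p = 0.00101), the largest of the members tested. The other strand at the Olig1 locus holds Gm15966, which overlaps 157 of its 2162 exon bases, and counting without strand does not separate these genes.

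The other 6 members tested were not called. Cnp was almost level, with 28.9 and 31.0 CPM in soma and 41.9 and 30.9 in neurites (log2 change 0.22 ± 0.15, adjusted p = 0.331). Olig2, the partner of Olig1 in specifying the lineage, gave 0.53 ± 0.29 (adjusted p = 0.218). For Mobp the value was 1.41 ± 0.57, for Mag 0.68 ± 0.43 and for Pdgfra 0.34 ± 0.43. Mog was the only member tested with a lower value in neurites, at 0.407 and 0.566 CPM against 0.781 and 1.02 in soma (log2 change −0.97 ± 0.40, adjusted p = 0.120). Sox10 had too few counts to be tested, since its soma libraries held 7 and 8 and its neurite libraries 5 each.

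Thus 2 of 8 members were called, both higher, where 13.5% of the 23200 genes tested were called in either direction. The median log2 change of the 8 was 0.61, against −0.10 for all genes. Of the other oligodendrocyte genes, 1 of 8 tested OPC genes was called (Sox6, a repressor of differentiation, 0.70 ± 0.21, adjusted p = 0.0439), 1 of 6 differentiating genes (Tcf7l2, a Wnt effector, 1.04 ± 0.27, adjusted p = 0.0223) and 0 of 12 myelinating genes. Their medians were 0.09, 0.26 and 0.23. The most highly expressed of these per length did not pass both thresholds either, among them Ptprz1 (0.18 ± 0.25), Lhfpl3 (−0.46 ± 0.24), Cspg4 (0.08 ± 0.14), Sirt2 (0.06 ± 0.11), Bcas1 (−0.27 ± 0.51) and Gpr37 (0.14 ± 0.16). Tspan2, a tetraspanin of myelin, had −0.53 ± 0.16 with an adjusted p of 0.0406, below the 1.5-fold limit.

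Markers of other cells were called in the same libraries. In neurites, 6 of 12 astrocyte markers, 2 of 7 microglia markers and 6 of 10 fibroblast and vascular markers tested were called higher and none lower, as were 3 of 12 neuron markers. The summed astrocyte level was 1246 and 1266 CPM in soma and 3365 and 2094 in neurites. The summed microglia level went from 14.1 and 12.3 to 23.2 and 29.7 CPM, the fibroblast and vascular level from 38.8 and 32.7 to 146 and 175, and that of neuron markers from 5794 and 6103 to 11940 and 13762. The neuron list had a median log2 change of 0.04, and its called genes were Camk2a (2.06), Map2 (1.73) and Nefl (0.79). No marker of these lists was at 0 in all WT libraries, and the part of other cells in the Mbp and Olig1 values was not tested.

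**Figure D2:**
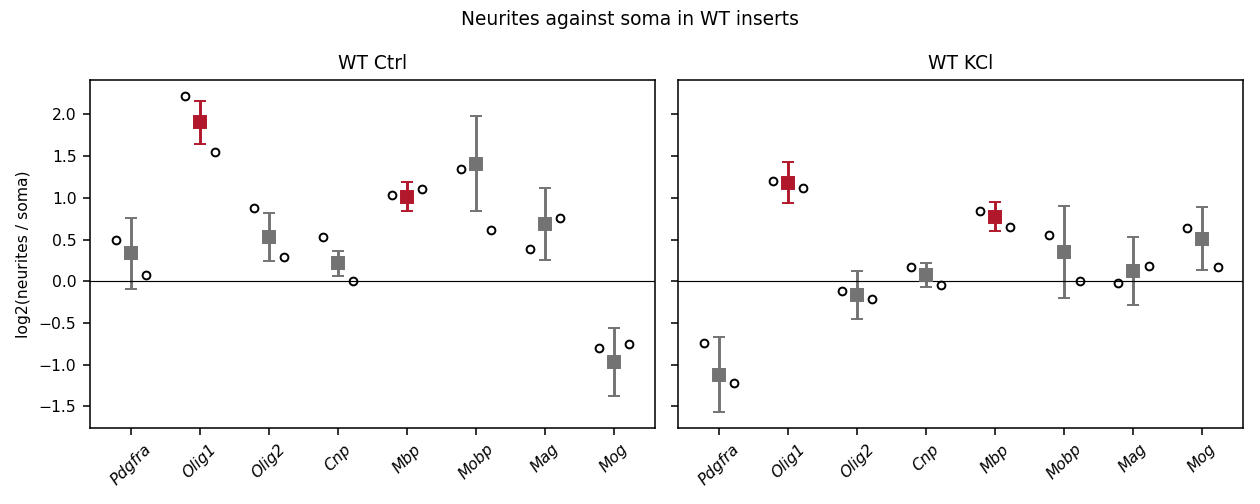
Log2 ratio of neurites to soma in untreated (left) and KCl-treated (right) WT inserts for the 8 members tested. Squares and bars are the edgeR estimate ± SE, red where called and grey where not, and open circles are the 2 single inserts. Olig1 and Mbp are called in both panels, and Mog, Olig2 and Pdgfra lie on other sides of 0 in Ctrl and KCl.

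Mbp and Olig1 also rose in neurites of KCl-treated WT inserts. Mbp was at 29.5 and 24.9 CPM in soma and at 52.8 and 39.1 in neurites (log2 change 0.77 ± 0.17, adjusted p = 0.0170). Olig1 was at 3.59 and 4.51 CPM in soma and at 8.40 and 9.89 in neurites (1.18 ± 0.25, adjusted p = 0.0131). In both genes the fractions did not overlap, which adds no support, since they were called from these same libraries. The other 6 tested members ranged from −1.12 ± 0.45 for Pdgfra (adjusted p = 0.129) to 0.51 ± 0.38 for Mog. Again 2 of 8 were called, beside 9.54% of 23200 genes, with a median of 0.24 for the members and −0.03 for all genes. None of the other 26 oligodendrocyte genes tested was called. In these libraries 4 of 12 astrocyte markers, 2 of 7 microglia markers and 1 of 10 fibroblast and vascular markers were called higher, and of 12 neuron markers 3 were called higher and 2 lower. The calls rested on 3 of the 4 libraries. Leaving out neurite replicate 1 left neither Mbp (0.52, adjusted p = 0.159) nor Olig1 (1.28, adjusted p = 0.0607) called. Without neurite replicate 2 the call was lost for Olig1 (1.08, adjusted p = 0.0831), and without soma replicate 2 for Mbp (0.67, adjusted p = 0.0504). In the fit to all 16 libraries, which shares 1 estimate of the spread with Mettl3 KO, no member was called in Ctrl or KCl. There Mbp had 1.11 (adjusted p = 0.925) and Olig1 1.99 (adjusted p = 0.842) in Ctrl, and 0.75 and 1.17 (adjusted p = 0.990 each) in KCl.

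The response to KCl itself was read at the 2-fold limit that the study set for soma. In WT soma none of the 8 members tested passed it in edgeR, beside 6.81% of 23200 genes. Without adjustment none passed either, and DESeq2 called none. The smallest p belonged to Mbp, which was at 35.5 and 40.4 CPM in Ctrl and 29.5 and 24.9 in KCl (log2 change −0.48 ± 0.17, adjusted p = 0.0997). Cnp had 0.25 ± 0.15 and Olig1 0.19 ± 0.25, and the median of the members was 0.22 against 0.01 for all genes.

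In WT neurites none of the 8 members was called in edgeR and none in DESeq2, beside 4.94% of 23200 genes, and 1 passed on the unadjusted p. Mbp was at 72.8 and 87.2 CPM in Ctrl and at 52.8 and 39.1 in KCl, lower by less than 2-fold (log2 change −0.72 ± 0.17, adjusted p = 0.0281). The member with the largest change was Mog, at 0.407 and 0.566 CPM in Ctrl and 1.42 and 0.811 in KCl (1.29 ± 0.41, adjusted p = 0.0840), from 21 and 19 counts to 60 and 40. When no filter on low counts was set, Mog was called (1.29, adjusted p = 0.0375). The median of the members was −0.42, against 0.01 for all genes. Of the other oligodendrocyte genes none was called in either compartment. Gpr37, a receptor made by myelinating cells, had a log2 change of −0.87 ± 0.17 (adjusted p = 0.00915) in neurites, also short of 2-fold.

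Whether KCl changed the balance between neurites and soma was tested as an interaction, with 1 term per insert and, after the study, an unadjusted p of at most 0.05. By that rule 3 of 8 members were called, beside 3.36% of 23200 genes, and at an adjusted p none was. With no insert term 2 members passed at an unadjusted p (Mog and Pdgfra), and with the numbers of the Ctrl neurite libraries exchanged 1 did (Mog). Same-numbered soma and neurite libraries of WT correlated at −0.12 in Ctrl and 0.04 in KCl, so the pairing rests on the study's account of paired samples. The unadjusted p of edgeR was 0.0260 for Mog, 0.0371 for Pdgfra and 0.0455 for Olig1. Mog gained neurite RNA relative to soma (log2 change of the ratio 1.42 ± 0.53). Within single inserts its log2 ratio of neurites to soma was −0.80 and −0.75 in Ctrl and 0.64 and 0.17 in KCl. Pdgfra went the other way (−1.41 ± 0.58), with 0.50 and 0.07 in Ctrl and −0.74 and −1.22 in KCl. Olig1 also had a smaller ratio (−0.67 ± 0.29), with 2.22 and 1.55 in Ctrl and 1.20 and 1.12 in KCl. For each of the 3 the inserts of the 2 conditions did not overlap. The 3 were picked by a test on these same libraries, so this adds no support. The share of all genes without overlap was not counted. The adjusted p was 0.999 for each, and for Mog and Pdgfra the counts behind these ratios were 17 to 66. Each call also hung on single libraries, left out in a fit with no insert term. Without Ctrl neurite replicate 1 none of the 3 was called, at 1.20 for Mog, −0.79 for Pdgfra and −0.28 for Olig1. The same held without KCl soma replicate 2, at 1.35, −1.37 and −0.52, and without Ctrl soma replicate 2, at 1.16, −1.27 and −0.75. Without any other library but Ctrl neurite replicate 2, 1 or 2 of the 3 calls were lost (at 1.00 for Mog without KCl neurite replicate 1, for example). In the same comparison 4 of 10 fibroblast and vascular, 1 of 12 astrocyte and 1 of 12 neuron markers had a smaller ratio. Over all genes 465 of 779 calls were higher, and 343 of 790 when libraries were scaled by RLE.

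Between genotypes, in the untreated cultures, the level of Olig1 in soma was 3.78 and 3.37 CPM in WT and 52.2 and 10.8 in Mettl3 KO, and in neurites 18.0 and 10.1 in WT and 122 and 23.5 in Mettl3 KO. Both Mettl3 KO values lay above both WT values in each compartment, with the Ctrl Mettl3 KO insert 1 above insert 2. Olig2 was at 0.947 and 1.45 CPM in WT soma and 3.15 and 1.60 in Mettl3 KO soma, and at 1.82 and 1.79 in WT neurites and 14.2 and 2.56 in Mettl3 KO neurites. Here too the genotypes did not overlap, with the Ctrl Mettl3 KO insert 1 far above the rest in neurites. With 2 libraries a side such separation is common by chance, and its share over all genes was not counted. Non-overlap between genotypes, here and in the myelin genes below, is therefore a description only.

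By edgeR no member was called in soma or neurites, out of 9 tested, beside 0.189% and 0.171% of 23335 genes. DESeq2 called none either, and 0 members in soma and 0 in neurites passed on the unadjusted p of edgeR. For Olig1 the log2 change was 3.20 ± 1.62 in soma (adjusted p = 0.606) and 2.34 ± 1.56 in neurites (adjusted p = 0.876). For Olig2 it was 1.03 ± 1.49 and 2.16 ± 1.52. Without both libraries of KCl-treated Mettl3 KO insert 1, which share the estimate of the spread, the calls over all genes went from 44 to 411 in soma and from 40 to 259 in neurites. There Olig1 had 3.15 ± 0.82 (adjusted p = 0.0889) in soma and 2.38 ± 0.79 (adjusted p = 0.183) in neurites, and Olig2 had 2.21 ± 0.65 (adjusted p = 0.142) in neurites, again with no call. Without the Ctrl Mettl3 KO insert 1 library of the compartment the log2 change of Olig1 was 1.62 in soma and 0.77 in neurites. With no filter on low counts edgeR called Olig1 in both compartments (adjusted p = 3.2e-11 and 1.98e-06) and Olig2 in neurites (0.00459), a change whose cause was not tested.

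The myelin genes did not move as a group between the genotypes. Cnp was at 28.9 and 31.0 CPM in WT soma and 44.4 and 53.1 in Mettl3 KO soma, without overlap, and its log2 change was 0.72 ± 1.23 (0.70 ± 0.23 without insert 1, adjusted p = 0.152). Mbp was at 22.04 and 49.7 CPM in Mettl3 KO soma, below and above the WT pair (−0.08 ± 1.45). Mag had 0.656 and 0.690 CPM against 0.243 and 0.222 in WT soma, from 31 and 37 counts against 19 and 14. Mobp was likewise higher, with 0.317 and 0.578 CPM against 0.0768 and 0.159 and 15 and 31 counts against 6 and 10, and Mog was lower, with 0.762 and 0.522 CPM against 0.781 and 1.02. Sox10 and Pdgfra overlapped with WT in soma. In neurites Mobp had the other sign, with 0.208 and 0.0557 CPM in Mettl3 KO against 0.349 and 0.298 in WT, without overlap (log2 change −1.28 ± 2.04, adjusted p = 0.970). Cnp was at 66.4 and 43.6 CPM in Mettl3 KO neurites against 41.9 and 30.9 in WT, also without overlap (0.57 ± 1.23, adjusted p = 0.986). Sox10 passed the count filter only through insert 1. None of the 34 other oligodendrocyte genes tested was called in soma or neurites. The summed astrocyte markers were at 2549 and 2132 CPM in Mettl3 KO soma and 7263 and 3007 in Mettl3 KO neurites, against 1246 and 1266 in WT soma and 3365 and 2094 in WT neurites, and their part in the Olig1 and Olig2 values was not tested.

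Within Mettl3 KO, neurites against soma called 0 of 9 members in Ctrl and 0 of 9 in KCl, beside 0% of 23099 genes in edgeR for both. On the unadjusted p edgeR called 1214 genes in Ctrl and 146 in KCl, with no member among them, and DESeq2 called 8 and 0 genes. The SE of the members ran from 1.11 to 2.95 in Ctrl and from 1.07 to 2.28 in KCl, so single inserts say more than the fit. The log2 ratio of neurites to soma in the Ctrl inserts was 0.64 and 0.63 for Mbp and 1.23 and 1.11 for Olig1, on the same side of 0 as in WT. For Olig2 it was 2.13 and 0.64, for Cnp 0.58 and −0.28 and for Mobp −0.44 and −2.12. In the KCl-treated insert 2 it was 0.40 for Mbp, 0.39 for Olig1 and 1.24 for Mog, the last from 11 soma and 22 neurite counts. In that insert 5 of the 9 members were above 0, with a median of 0.12 and a lowest value of −1.49.

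KCl-treated Mettl3 KO insert 1 stood far above the rest in the members. Its 2 libraries are 1 insert, so its values are a description with no test. In its soma library, 8 of the 9 members were at least 10-fold above the highest of the 7 other soma libraries, beside 0.977% of 24058 genes. In its neurite library it was 6 of 9, beside 1.05% of 22311 genes. Genes entered at an average of 10 counts or more over the libraries of the compartment, insert 1 included. Sox10, with 3 to 15 counts elsewhere, entered only through insert 1. So did Mobp in neurites, with 2 to 18 counts in the other neurite libraries. Both are among the members counted here, so their part in these counts is no support. The median over the 9 was 25.4-fold in soma and 34.5-fold in neurites. Per kilobase, Olig1 (277 CPM per kb), Cnp (233) and Mbp (175) were highest in its soma, and Cnp (487), Mbp (355) and Olig1 (349) in its neurites. Mag was at 136 CPM in soma and 303 in neurites, where the highest other libraries had 0.690 and 0.864. Mbp was at 1486 CPM in soma and 3006 in neurites, against at most 49.7 and 87.2 elsewhere. Cnp reached 847 and 1772 CPM, and Mobp 14.7 and 17.3.

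The progenitor and lineage genes were far apart too. Pdgfra, with 4 to 66 counts in the 14 other libraries, had 8920 counts in the soma and 10319 in the neurite library of insert 1. Sox10 went from at most 15 counts to 2984 and 4561. Olig1 was at 598 and 754 CPM, 11.5-fold and 6.16-fold above the next library, and Olig2 at 41.0 and 56.2 CPM, where the next library had 3.15 and 14.2. For both the next library was the Ctrl Mettl3 KO insert 1 of the same compartment. Mog had the smallest fold of the members, at 3.02 and 2.61 CPM, 2.97-fold and 1.83-fold above the next library. Per kilobase it was also the lowest member in insert 1, at 1.77 in soma and 1.53 in neurites. Mobp was nearly as low, at 2.14 and 2.52, where Mag had 33.4 and 74.3. Whether this order reflects the stage of the cells was not tested.

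**Figure D3:**
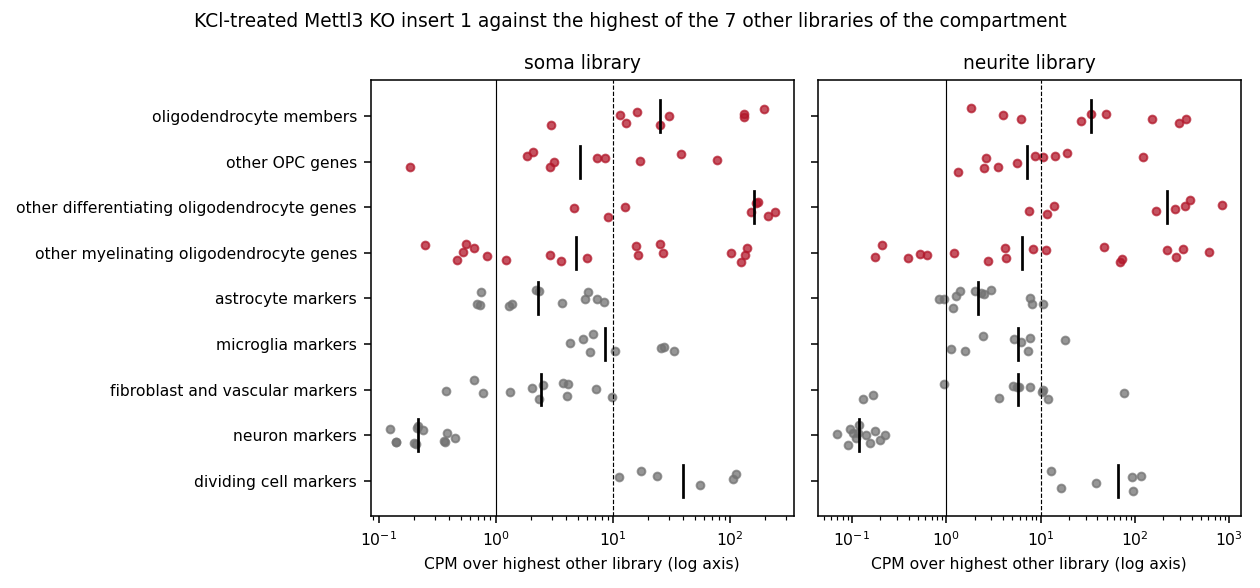
Fold of KCl-treated Mettl3 KO insert 1 over the highest of the 7 other libraries of the same compartment, on a log axis, for each gene (points) of 9 lists, with oligodendrocyte lists in red, other lists in grey, the list median as a black bar, a solid line at 1 and a dashed line at 10. The differentiating oligodendrocyte genes have the highest medians (160-fold in soma and 218-fold in neurites) and the neuron markers lie below 1.

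Among other oligodendrocyte genes, those of the differentiating stage had the highest medians in insert 1. In soma 6 of 8 and in neurites 7 of 8 were at least 10-fold above the next library, with medians of 160-fold and 218-fold. Bmp4 and Zfp488 of this list, and Neu4 and Nkx2-2 of the OPC list, passed the count filter only through insert 1. They included Enpp6, a phosphodiesterase of newly formed oligodendrocytes (241-fold and 386-fold), Bcas1 (167-fold and 827-fold), and Gpr17, a receptor of the differentiating stage (172-fold and 167-fold). Of 10 other OPC genes, 3 in soma and 4 in neurites passed 10-fold, among them Neu4 and Nkx2-2. Less raised were Cspg4 (2.09-fold and 2.53-fold), Ptprz1 (2.89-fold and 2.63-fold), Vcan (3.15-fold and 5.63-fold) and Matn4 (1.84-fold and 3.54-fold). C1ql1 was below another library in soma (0.183-fold) and at 1.32-fold in neurites. The reason for these differences was not tested.

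The 18 other myelinating genes split. In each compartment 8 passed 10-fold, such as Cldn11, the claudin of myelin (125-fold and 614-fold), Fa2h (135-fold and 321-fold) and Myrf, the regulator of myelin genes (25.5-fold and 73.4-fold). Others did not exceed the other libraries, among them Ermn, a late myelin protein (0.251-fold and 0.210-fold), Tspan2 (0.469-fold and 0.620-fold) and Gpr37 (0.526-fold and 0.393-fold). Klk6 had 3 and 1 counts in insert 1. The median of the 18 was 4.80-fold in soma and 6.30-fold in neurites.

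Oligodendrocyte genes were not alone in this insert. All 6 dividing cell markers were at least 10-fold above the next library in both compartments, with sums of 297 and 359 CPM against 4.59 to 7.85 in the 14 other libraries. The summed astrocyte markers were at 9694 and 18714 CPM against 1246 to 7263, and the microglia markers at 393 and 285 against 12.3 to 56.6. The fibroblast and vascular sum was 151 CPM in soma, against 32.7 to 81.0 in the 7 other soma libraries, and 752 in neurites, against 44.3 to 186 in the 7 others. The neuron markers were at 2696 and 2317 CPM, below the 4679 to 13762 of the others, and none of the 12 was above the next library. No oligodendrocyte member, astrocyte, microglia or dividing cell marker was at 0 in insert 1. Their part in the levels of the members was not tested.

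**Figure D4:**
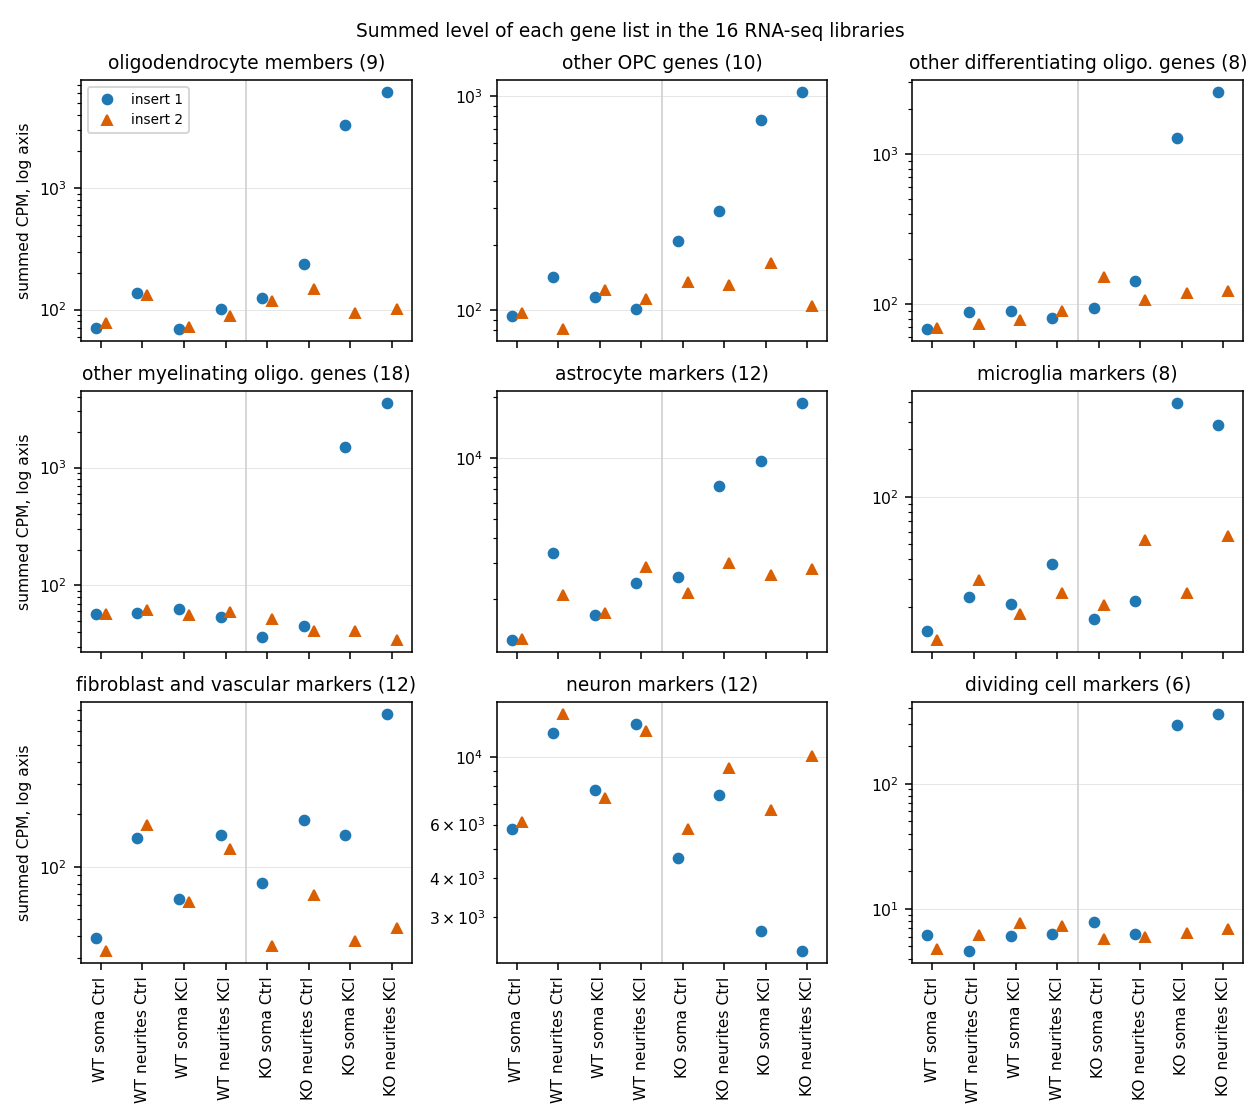
Summed CPM of each gene list (number of genes in brackets) in the 16 RNA-seq libraries, on log axes, by group, with circles for insert 1, triangles for insert 2 and a grey line between WT and Mettl3 KO. The 4 oligodendrocyte sums and the dividing cell, astrocyte and microglia sums of KCl-treated Mettl3 KO insert 1 lie above the 14 other libraries in both compartments, and its neuron sum lies below them.

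Between the 2 libraries of insert 1, most oligodendrocyte RNAs had a higher share in neurites. The log2 ratio of neurites to soma was 1.02 for Mbp, 1.06 for Cnp, 1.15 for Mag and 0.23 for Mobp among the myelin genes, and 0.33 for Olig1, 0.45 for Olig2, 0.46 for Pdgfra and 0.87 for Sox10. Of the 9 members 8 were above 0, all but Mog (−0.20), with a median of 0.46 against 0.05 for all 24072 genes compared. All 8 differentiating and all 10 OPC genes were above 0 as well, and so were 12 of 12 astrocyte markers, whose median was 0.78. Olig1 had a smaller ratio here than in any WT insert, where it ran from 1.12 to 2.22, while the ratio of Mbp fell within its WT range of 0.65 to 1.11. The small Olig1 ratio was not particular to insert 1. KCl-treated Mettl3 KO insert 2 had a similar one, its Olig1 level rising only from 13.7 (soma) to 18.0 CPM (neurites). Both Ctrl Mettl3 KO inserts had larger Olig1 ratios.

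Genes were also ranked by how like their pattern over the 16 libraries was to that of the members. Likeness was Pearson's correlation of log2(CPM + 1) with the mean of the member set, over 17282 genes averaging 50 counts or more. To the mean of Pdgfra, Olig1, Olig2 and Sox10 the closest were Itpr2 (r = 0.994), Nkx2-2 (0.990), Tmem100 (0.988), Cd9 (0.988) and S1pr2 (0.988). To the mean of Mbp, Mog, Mag, Mobp and Cnp the closest were Gpr17 (0.995), Zfp488 (0.995), Lims2 (0.995), Neu4 (0.995) and Melk (0.994). Of the 16 points 2 are the libraries of insert 1, far from the others. In the other 14 libraries Nkx2-2 had 1 to 27 counts, Gpr17 8 to 22, Zfp488 1 to 8 and Neu4 0 to 8, so that these 4 averaged 50 counts only through insert 1 and their r rests on it. By Spearman's correlation over all 16 libraries none of the 10 was among the 5 closest, which were Celrr (0.971), Nfe2l2 (0.971), Zcchc24 (0.968), Prkd3 (0.953) and Apobec1 (0.947) for the first set and Sptssa (0.924), Plin2 (0.897), Cdk5rap3 (0.885), Bak1 (0.882) and Efhd1 (0.882) for the second. By Pearson's correlation over the other 14, none of the 10 was among the 5 closest either. Igfbp2 (0.980), the astrocyte gene Aldh1l1 (0.961), Gm19554 (0.960) and Hepacam (0.957) were then among the closest to the first set, and Gm27194 (0.939), Wsb2 (0.918), Zfp444 (0.917), Rab22a (0.910) and Rnf114 (0.902) were the closest to the second. Libraries of 1 insert or litter are not independent points, and no p is given.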

How the data were processed

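The authors trimmed reads with Flexbar, aligned them to mm10 with STAR 2.7.7a and deposited counts of fragments per gene from featureCounts 2.0.1, made without strand and with multi-mapping reads, on Ensembl GRCm38 exons per the file headers. The authors also deposited DART-seq editing scores per RNA and a fraction per site, both averaged over libraries. The authors' own DESeq2 fold changes and p-values were not used. The members, lists and tests were chosen with earlier results of these data known.

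Libraries were scaled by TMM. Tests were edgeR 4.0.16 quasi-likelihood tests (R 4.3.3, two-sided, Benjamini-Hochberg over all genes averaging 10 counts or more), with 1 coefficient per group over the 8 libraries of a genotype, or over all 16 libraries between genotypes. Calls needed an adjusted p of at most 0.05 and 1.5-fold, or 2-fold for KCl. The script was tested on simulated counts. DESeq2 1.42.0 was an alternative. Each group holds 2 inserts, so p-values measure the spread between these. Named genes are the 9 members, other oligodendrocyte genes that were called or among the 3 highest of their list, and the 5 most similar genes. Genes named for KCl-treated Mettl3 KO insert 1 beyond these were chosen after their values were seen. Soma and neurites with the same number were taken as 1 insert, since the study isolated paired samples. Their differences correlated at −0.12 and 0.04 in WT and 0.04 and 0.89 in Mettl3 KO. Some genes that this rule names are not reported here.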

Additional observations from a re-analysis of the deposited data

Results flagged for a closer look

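By the interaction test at an unadjusted p, 3 members had a different neurite to soma ratio in KCl-treated than in untreated WT inserts. The log2 change of the ratio was 1.42 for Mog, −0.67 for Olig1 and −1.41 for Pdgfra, and the adjusted p was 0.999 for each. For all 3 the inserts of KCl and Ctrl did not overlap, which adds no support, since the test that picked them used the same libraries. With no insert term 2 of them passed at an unadjusted p (Mog and Pdgfra), and with the pairing of the Ctrl libraries crossed 1 did (Mog).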

How the results depend on the processing

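The 2 members called in untreated WT neurites, Mbp and Olig1, were called in each alternative run except the fit to all 16 libraries, which called 0. In KCl-treated WT that fit also called 0, and leaving out each library gave 0 to 2. With no filter on low counts 1 member was called for KCl in WT neurites, 1 for Mettl3 KO in soma and 2 in neurites. For the change in neurite enrichment, DESeq2 and the 16 libraries each called 1, the adjusted p 0, each library left out 0 to 3, and the fit with no replicate block 2. The paired fit (replicate block) called 2 members in WT Ctrl and 2 in WT KCl and changed no other call of a member. A crossed replicate block, chosen after seeing the data as was leaving out both libraries of KCl-treated Mettl3 KO insert 1, called 2 members in WT Ctrl among 3262 genes and 1 for the change in enrichment among 887. The cause of these changes was not tested.

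Some log2 changes that passed no test turned sign in some of the alternative runs, left-out libraries among them. The ranges given are over the main and all alternative runs but the crossed block. They ranged from −0.34 to 0.80 for Pdgfra between neurites and soma in WT Ctrl, from −0.027 to 0.22 for Cnp in WT KCl, from −0.30 to 0.10 for Mog, −0.0089 to 0.37 for Olig1 and −0.0075 to 0.61 for Olig2 for KCl in soma, and from −0.068 to 0.30 for Cnp for KCl in neurites. For Mettl3 KO in soma the range was −0.74 to 0.41 for Mbp, −0.49 to 1.59 for Sox10 and −1.57 to 0.29 for Pdgfra, and in neurites −0.19 to 0.52 for Mog and −0.13 to 1.15 for Mag. For the change in enrichment it was −0.32 to 0.057 for Cnp. In Mettl3 KO, neurites against soma changed sign in 10 of 97 values in Ctrl and 22 of 98 in KCl.

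Counts over all genes moved more. With all 16 libraries fitted, the calls were 0 against 3133 in WT Ctrl and 0 against 2213 in WT KCl for neurites against soma, 332 against 1581 for KCl in soma, 254 against 1147 in neurites and 285 against 779 for the change in enrichment. Leaving out each library gave 1076 to 3642, 731 to 2379, 806 to 1523, 598 to 1226 and 555 to 1972. Between genotypes DESeq2 called 413 in soma and 306 in neurites, no filter 505 and 353, the 4 libraries alone 0 and 136, and each library left out 4 to 2650 and 5 to 13, against 44 and 40. With no filter, 1761 genes were called for KCl in neurites, 1457 for the change in enrichment, and 176 and 2 in Mettl3 KO neurites against soma, where leaving out a library gave up to 1029. DESeq2 called 498 for the change in enrichment.

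Depth limits the rarer members: for Mag, Mobp, Mog and Pdgfra the SE of a log2 change in WT was 0.37 to 0.58, and Sox10 could not be tested there.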

Other observations

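In KCl-treated Mettl3 KO insert 1 the cell type lists lay differently between the fractions of the membrane. Of 8 microglia markers, 2 had a log2 ratio of neurites to soma above 0, with a median of −0.48, while all 8 differentiating oligodendrocyte genes were above 0 with a median of 0.96, as were 15 of 18 myelinating genes with a median of 0.75. The 12 fibroblast and vascular markers had a median of 1.78, the 6 dividing cell markers 0.28 and the 12 neuron markers −0.95, against 0.05 for all genes. These are ratios of 1 insert, and no test was made.

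Per length, Olig1 exceeded Olig2 by 2.73 to 4.67 times in WT soma and 7.88 to 19.4 times in Mettl3 KO soma, without overlap, and by 6.61 to 11.5 times in WT neurites and 10.1 to 20.7 times in Mettl3 KO neurites, with overlap.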
